A study of Mus musculus with 2 samples.

Results

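The genes that encode the proteins of the cytosolic ribosome were examined in Th1 cells of 2 genotypes. They were taken from the deposited tables by symbol, as every row that starts with Rpl or Rps followed by a digit, p or a, with the Rps6k kinases and the symbols carrying -ps left out. The rule gave 88 of 24421 listed genes. It left out 7 rows with -ps and 10 Rps6k rows. Of the 88 members, 77 are ribosomal proteins proper (46 of the large and 31 of the small subunit). The other 11 are paralogues, retrogenes or genes that only share the name (Rpl3l, Rpl7l1, Rpl10l, Rpl22l1, Rpl36al, Rpl37rt, Rpl39l, Rps4l, Rps27l, Rps27rt and Rps19bp1). The rule read no measured value.

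The study asked what chitinase 3-like 1 (Chi3l1) does in helper T cells, and sequenced RNA of Chi3l1+/+ (WT) and Chi3l1-/- (KO) cells on the C57BL/6J background. Both cultures started from naive CD4 T cells of young adult mice, which were activated with antibodies to CD3 and CD28 and skewed with IL-12, IL-2 and an antibody against IL-4, and the KO mice lack Chi3l1 in every tissue. Each genotype is represented by 1 library (n = 1), so no difference between genotypes has a replicate check and none was tested. The intervals below hold counting error only.

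The ribosome joins a small subunit, which reads the mRNA, to a large subunit, which forms the peptide bond. Most ribosomal proteins are needed in equal number (the stalk proteins Rplp1 and Rplp2 in more copies than the rest), yet each mRNA is made from a separate gene. Naive T cells hold few ribosomes, and activation through the antigen receptor raises their production by way of mTOR and Myc. The mRNAs of ribosomal proteins share a run of pyrimidines at the cap, the terminal oligopyrimidine (TOP) tract, through which mTOR and LARP1 set their translation. Changes in translation through this tract do not need a change in mRNA level, which is what was measured here.

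All values are deposited log2 values of a normalized count plus 1, and a fold change is the value in the library labelled KO minus that in the library labelled WT. A gene is called higher or lower by the sign of that difference. The libraries held 70821206 (labelled WT) and 63154801 (labelled KO) rebuilt reads. Chil1, the mouse symbol of Chi3l1, was read once in the library labelled WT and 104 times in the library labelled KO, a log2 difference of 5.71 that goes against the labels, so each direction below rests on labels that the targeted gene did not bear out. Of 9 T cell markers, 8 were listed and all 8 stood at 11.9 or more in the library labelled WT, with 1 higher and 7 lower in the library labelled KO (median difference -0.19). Of 5 Th1 markers 3 were higher and 2 lower, among them the Th1 cytokine Ifng at 11.72 (labelled WT) and 13.04 (labelled KO) and the chemokine receptor Cxcr3 at 8.05 and 6.82. All 5 B cell markers were higher in the library labelled KO (summed normalized count 939 against 1731), all 5 listed neutrophil markers were lower (80.3 against 4.8), and the sums of the monocyte and macrophage markers (687 against 578), dendritic cell markers (73.6 against 122) and erythroid markers (23.2 against 15.4) were small as well. The ribosomal RNA precursor Rn45s took 2.83% of the reads labelled WT and 1.0% of those labelled KO. The part of these differences in the values of the ribosomal protein genes was not tested.

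Stretches around the start of transcription were printed for the members with the 3 largest increases that had an entry with a single start, and for 3 of the 10 with the largest decreases, picked because they hold the searched letters next to the start, to show starts with and without a pyrimidine-rich tract. Each stretch runs 5′ to 3′ on the coding strand, from 60 bases before to 20 bases after the annotated start (RefSeq, GRCm38.p6). Capitals mark CTTTC or CTTCC within the window from 50 bases before the start, and CCGGAAG or its reverse complement CTTCCGG, which itself contains CTTCC. The stretches lie at chr7:99483690-99483769 (Rps3, minus strand), chr11:97782420-97782499 (Rpl23, minus), chr11:68901506-68901585 (Rpl26, plus), chr17:27635225-27635304 (Rps10, minus), chr7:141447591-141447670 (Rplp2, plus) and chr2:26910747-26910826 (Rpl7a, plus).
Rps3: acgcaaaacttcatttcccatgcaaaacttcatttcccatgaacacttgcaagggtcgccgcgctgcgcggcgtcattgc
Rpl23: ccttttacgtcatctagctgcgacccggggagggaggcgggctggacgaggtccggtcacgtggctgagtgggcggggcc
Rpl26: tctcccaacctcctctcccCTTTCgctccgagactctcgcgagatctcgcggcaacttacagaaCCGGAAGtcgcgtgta
Rps10: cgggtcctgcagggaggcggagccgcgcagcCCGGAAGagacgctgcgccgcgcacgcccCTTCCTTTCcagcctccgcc
Rplp2: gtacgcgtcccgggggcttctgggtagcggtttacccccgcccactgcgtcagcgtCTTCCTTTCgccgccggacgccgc
Rpl7a: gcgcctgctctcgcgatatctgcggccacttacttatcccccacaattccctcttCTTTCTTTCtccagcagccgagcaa

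In Rps10, Rplp2 and Rpl7a the capitals closest to the start lie within a few bases of it, in a run of C and T. The stretches of Rps3 and Rpl23, the members with the largest differences, hold none of the searched letters. Rps3 holds CTTTC or CTTCC past the end of its printed stretch, within 50 bases after the start. It is therefore counted below with the genes that hold these letters, and Rpl23 with those that do not. Among unprinted stretches of the 10 largest increases with a single start, Rps23, Rps15a and Rpl36al hold the letters and Rps6 does not. Among those of the 10 largest decreases, Rpl18, Rpl12 and Rps26 hold them and Rpl10 does not. Among all members, 67 of 88 matched a promoter entry, of which 57 were ribosomal proteins proper. Those without an entry included Rpl3, Rpl7, Rpl8, Rpl17, Rpl21, Rpl23a, Rpl29, Rpl30, Rpl32, Rpl36, Rplp1, Rps4l, Rps14, Rps20, Rps27a and Rps29. CTTTC or CTTCC on the coding strand, in the 100 bases centred on any annotated start, was found in 42 of the 57 (73.7%), in 32.5% of all 27025 genes with an entry and in 35.4% of 6713 other genes that were well read here. The longest run of C and T in that window had a median of 11 bases against 7 over all genes. CCGGAAG, the core of the motif bound by ETS family factors, stood on either strand of the 300-base promoter in 24 of the 57 (42.1%), in 9.9% of all genes and in 23.5% of the other well read genes. TATAA in the 50 bases before the start was found in 4 of the 57 (7.0%), in 5.9% of all genes and in 2.5% of the other well read genes. The median log2 fold change was 0.12 for the 42 genes with CTTTC or CTTCC and 0.27 for the 15 without, and the ranges of both groups overlapped (-0.62 to 0.86 and -0.30 to 0.69).

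The ribosomal protein mRNAs were among the most abundant in both libraries, and the level of single genes differed widely. Of the 88 members, 83 reached a log2 value of 8 in both libraries and are called well read. The exceptions were Rpl3l, Rpl10l, Rpl39l, Rps4l and Rps19bp1. Among the 77 ribosomal proteins proper the log2 values, which are not corrected for transcript length, ran from 9.90 (Rps21) to 18.1 (Rplp0) in the library labelled WT, with a median of 15.0 and an SD across genes of 1.67. In the library labelled KO they ran from 10.1 to 18.0, with a median of 15.3 and an SD of 1.54. The order of the genes was nearly the same in both (r = 0.99 and rho = 0.99 across 77 genes, which are not independent and share both libraries). The plot of levels shows each member in both libraries.

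To rank genes by level, the normalized count was taken per kb of the longest annotated transcript. On this scale Rpl38, a large subunit protein known for patterning of the mouse skeleton, was highest at 270585 (labelled WT) and 272845 (labelled KO). Rplp0, the base of the P stalk, followed at 208619 and 198463. Rpl23a, near the exit of the peptide tunnel, stood at 174165 and 167071, and Rpl7a at 154608 and 126279. Rps10, at the mRNA entry of the small subunit, ranked 5 in the library labelled WT (133269) and lower in the library labelled KO (86714), where Rpl31 had a higher level (142438).

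At the other end, the 5 lowest well read members labelled WT were mostly not ribosomal proteins proper. Rpl22l1, the paralogue of Rpl22, stood at 430 and 558, the transcribed pseudogene Rpl37rt at 696 and 846, the retrogene Rpl36al at 868 and 1169, and Rpl7l1 at 1062 and 911. Rpl35a was the lowest ribosomal protein proper, at 1073 (labelled WT) and 1483 (labelled KO) per kb. Over the 77 proper genes the highest level was 252 times the lowest in the library labelled WT and 184 times in the library labelled KO. The upper quartile was 5.23 and 5.62 times the lower one. This order depends on the transcript taken for the length. With the principal transcript, Rps13 moved from rank 32 to rank 6 and Rpl13 from 16 to 3 in the library labelled WT. Rps21 became the lowest proper gene at 2427, and the highest level was 111.5 times the lowest. With the mean transcript length Rplp0 ranked above Rpl38, Rps21 was again lowest, and the ratio was 143.5.

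Between the genotypes no member differed by 2-fold in either direction, where 4.7% of all 24421 genes were at least 2-fold higher and 5.81% at least 2-fold lower. At least 1.5-fold, 4 of 88 members were higher (4.55%), against 9.6% of all genes, and 2 of 88 were lower (2.27%), against 11.4%. Low genes fill these background shares, so well read genes were counted apart. Of the 83 well read members 4 were at least 1.5-fold higher (4.82%), against 3.95% of 8886 well read genes, and 1 was at least 1.5-fold lower (1.2%), against 6.29%. Counting any amount, 50 of the 83 were higher, where 48.8% of all well read genes were higher. In these bulk cultures, fewer cells with a transcript and less RNA per cell cannot be told apart.

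The median log2 fold change of the 83 well read members was 0.13 (SD across genes 0.29, quartiles -0.089 and 0.34), beside -0.011 for all well read genes (SD 0.37, quartiles -0.26 and 0.22). Over all 88 members it was 0.074, and without the members that have 5 or more near-identical copies, an alternative chosen after seeing the data, it turned to -0.014 over 40 genes, beside -0.011 for all well read genes. The plot of cumulative shares sets both distributions side by side. The small subunit genes had a median of 0.18 (20 higher and 11 lower) and the large subunit genes one of 0.029 (26 higher and 20 lower). The difference between subunits was not tested, since genes of 1 library pair are not replicates.

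**Figure D1:**
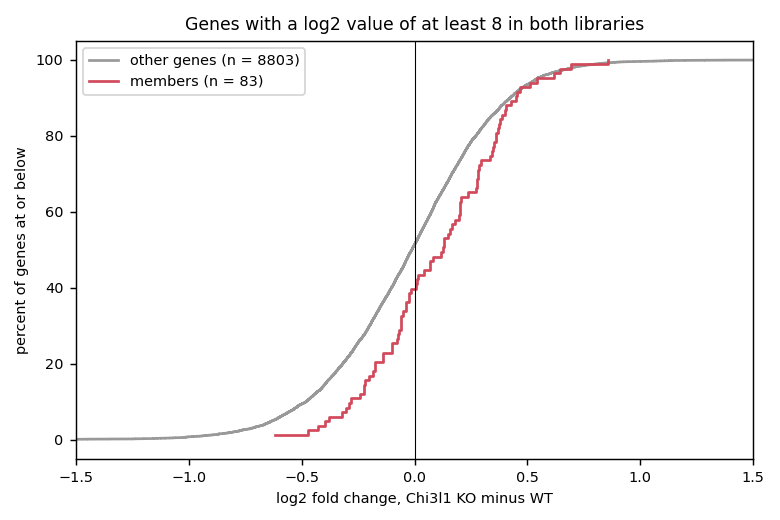
Cumulative percent of genes (y axis) at or below each log2 fold change, labelled KO minus labelled WT (x axis), for the 83 well read members and the 8803 other well read genes. The members' curve runs to the right of the other genes over most of its range and lacks their lower tail, and the lowest member stands at -0.62.

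The split into higher and lower moved with the scaling. It was 50 higher and 37 lower among the 88 members as deposited, and 67 and 20 when the libraries were scaled to their totals without Rn45s. Scaling to Actb gave 66 and 21, and quantile normalization gave 69 and 18. The first of these moved the median of all well read genes as well, from -0.011 to 0.13, and Actb scaling moved it to 0.11. The members' median less that of all well read genes was 0.085 as deposited, 0.086 without Rn45s, 0.085 with Actb and 0.20 with quantile normalization.

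Summed, the members held a near-constant normalized count, 4136367 (labelled WT) and 4077311 (labelled KO), a log2 difference of -0.021. The normalized counts of all genes summed to 68448996 and 60913079, a log2 difference of -0.17. Their share of the reads was therefore 6.04% (95% Clopper-Pearson interval 6.04 to 6.05) in the library labelled WT and 6.69% (6.69 to 6.70) in the library labelled KO. Leaving Rn45s out of the total gave 6.22% and 6.76%. The sum and the median of the members point in different directions, since the members with the highest levels were more often lower and those with lower levels more often higher. Across the 77 proper genes the log2 fold change fell with the mean log2 value of both libraries (r = -0.46, rho = -0.49), and across 8496 other well read genes r was -0.17 (rho = -0.18). These are descriptions across genes of the same 2 libraries.

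The largest increase was that of Rps3, which lines the mRNA entry channel of the small subunit and also acts in DNA repair. It lies on chromosome 7 (99477896 to 99483738, minus strand, GRCm38; identifier ENSMUSG00000030744.13). Its log2 value was 12.65 in the library labelled WT and 13.50 in the library labelled KO, from 6631 and 12044 reads, a fold change of 0.86 (95% counting interval 0.82 to 0.90). Rpl23, a large subunit protein that can bind MDM2, was at 11.65 and 12.34 (0.69, interval 0.63 to 0.76). Rpl26, which also binds the p53 mRNA, was at 14.43 and 15.08 (0.65, interval 0.62 to 0.67). Rpl7, also of the large subunit, was at 13.89 and 14.51 (0.62, interval 0.59 to 0.65). These 4 are all the members at least 1.5-fold higher as deposited. With the GC trend described below removed, Rpl23 (0.57) and Rpl7 (0.48) no longer passed that line.

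Next in order came Rps23, which sits in the decoding centre, at 13.97 and 14.51 (0.54), and Rps27a, made as a fusion with ubiquitin, at 12.51 and 13.02 (0.51). Rpl35a, of the large subunit, was at 11.58 and 12.05 (0.47). The small subunit genes Rps15a (13.79 and 14.25) and Rps6, the substrate of the S6 kinases downstream of mTOR (15.53 and 15.98), differed by 0.46 and 0.45. The retrogene Rpl36al was at 10.11 and 10.54 (0.43). Rps27a and Rpl36al share exon bases with another protein-coding gene, and whether the counting used strand is not given in the sources used here.

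Of well read members only Rps10 was at least 1.5-fold lower as deposited, and it did not pass that line when scaled without Rn45s (-0.48), to Actb (-0.50) or by quantiles (-0.43), or with the GC trend removed (-0.19). Rps10, a small subunit protein that is ubiquitinated when ribosomes collide, lies on chromosome 17 (27630418 to 27636669, minus strand, GRCm38; identifier ENSMUSG00000052146.16). It was at 16.85 in the library labelled WT and 16.23 in the library labelled KO, from 122307 and 79746 reads, a fold change of -0.62 (interval -0.63 to -0.61). Rpl29 was at 16.55 and 16.07 (-0.47). Rps19, needed to process the small subunit rRNA, was at 15.04 and 14.61 (-0.43). Rpl18 was at 14.90 and 14.50 (-0.40), and the stalk protein Rplp2 at 14.51 and 14.13 (-0.38).

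Smaller decreases were seen for Rpl12 at the base of the stalk (16.08 and 15.76, -0.32) and for Rpl10, which is fitted into the large subunit late in its maturation (16.68 and 16.38, -0.30). Rpl7a (17.30 and 17.01, -0.29), Rpl10a of the mobile stalk beside the exit site (15.999 and 15.718, -0.28) and Rps26, which touches the mRNA upstream of the start codon (15.92 and 15.68, -0.24), completed the 10 largest decreases. Rps10, Rpl18 and Rpl12 share exon bases with another protein-coding gene. Rpl3l, a muscle paralogue, was formally at least 1.5-fold lower, but was read once in the library labelled WT and not at all in the library labelled KO, which is not detectable as a difference at this depth.

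**Figure D2:**
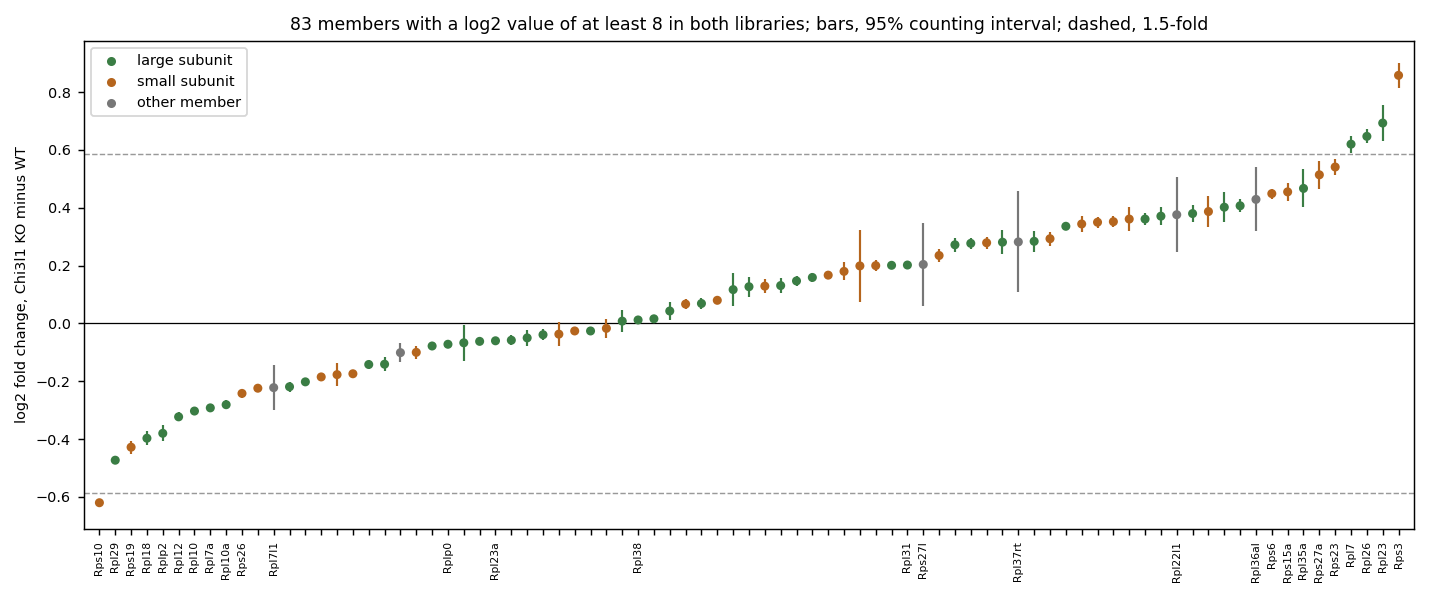
Log2 fold change of the 83 well read members (y axis, labelled KO minus labelled WT), in ascending order and coloured by subunit, with gene names as in the plot of levels, bars for the 95% counting interval and dashed lines at 1.5-fold. Rps10 lies below the lower line, and Rpl7, Rpl26, Rpl23 and Rps3 lie above the upper line.

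The counting intervals were narrow because these genes were deeply read, down to 990 and 1138 reads for Rps21, the lowest of the 77 proper genes. They say nothing of the spread between cultures or mice. The 10 largest increases and the 10 largest decreases kept their sign under every scaling tried, and with the GC or length trend removed.

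The P stalk recruits the elongation factors to the large subunit. Its genes Rplp0 (18.11 and 18.04, -0.072), Rplp1 (14.82 and 14.68, -0.14) and Rplp2 (-0.38) were 3 of 3 lower as deposited, but Rplp0 was higher when scaled without Rn45s (0.069), to Actb (0.044), by quantiles (0.11) or with the GC trend removed (0.024), and Rplp1 was higher by quantiles (0.036) and with the GC trend removed (0.13). Rplp2 alone stayed lower under all of these.

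Several ribosomal proteins bind MDM2 and stabilise p53 when ribosome assembly fails. Of 4 such genes on the list used here all 4 were higher as deposited, where 48.8% of all well read genes and 50 of 83 well read members were higher. Besides Rpl23, these are Rpl5 (14.76 and 15.16, 0.41) and Rpl11 (13.98 and 14.36, 0.38), which reach MDM2 as a complex with the 5S rRNA, and Rps7 (14.59 and 14.83, 0.24). All 4 were higher under each of those settings too, but more of the 88 members were higher there as well. That number was 67 without Rn45s, 66 with Actb, 69 by quantiles and 60 with the GC trend removed. Of the 4, only Rpl23 was at least 1.5-fold higher, where 3.95% of well read genes passed that line. Other proteins reported to bind MDM2 were not on the list, and Rps14 (13.25 and 13.07, -0.18), Rps26 (-0.24) and Rps27 (-0.10) among them were lower. A full list of such proteins was not counted, so these do not give the direction of the rest.

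Mutations of single ribosomal protein genes cause Diamond-Blackfan anaemia, a failure of red cell production. Of 9 such genes on the list used here, all well read, 4 were higher and 5 lower, with a median of -0.037. Of all well read genes 48.8% were higher, and of the well read members 50 of 83. The list is not complete, and Rpl5, Rpl11 and Rps7, also mutated in this disease and given above, were higher. The higher ones included Rpl26 (0.65), Rpl35a (0.47) and Rps24 (16.73 and 16.81, 0.080). The lower ones were Rps10 (-0.62), Rps19 (-0.43), Rps26 (-0.24), Rpl15 (17.33 and 17.26, -0.062) and Rps29 (13.10 and 13.06, -0.037). Genes for proteins of the same particle thus lay at both ends of the range.

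Other ribosomal proteins are made as fusions or carry names outside the rule. Fau, a fusion of a ubiquitin-like protein with a small subunit protein, was at 16.42 and 16.96 (0.54). Rack1, listed as Gnb2l1, which docks signalling proteins on the small subunit, was at 16.90 and 17.05 (0.15). Rpsa, the small subunit protein also called the laminin receptor, is a member by the rule and was at 17.51 and 17.33 (-0.18). None of these was 1.5-fold different as deposited, but Fau stood at 0.96 with the GC trend removed.

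Several paralogues were low or silent beside their partners. Rpl10l, known from testis, had no read in either library beside Rpl10, and Rpl39l was at 2.28 in both beside Rpl39 at 12.24 and 12.35. Rps27l, a target of p53, was at 9.50 and 9.71, beside Rps27 at 14.93 and 14.83. Rps4l, annotated as a transcribed pseudogene, was at 6.97 and 6.63 beside Rps4x at 15.14 and 15.42. Rpl22l1 (9.68 and 10.06, 0.38) and Rpl22 (13.56 and 13.69, 0.13) were both higher, as were Rpl36al (0.43) and Rpl36a (12.32 and 12.72, 0.40). Rpl7l1 was lower (11.44 and 11.21, -0.22) while Rpl7 was higher (0.62). Rps19bp1, which binds the Rps19 protein and is no part of the ribosome, was at 7.53 and 7.46 (-0.064, counting interval -0.37 to 0.24).

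Genes that share their sequence could hold the same reads, because the authors counted unique and multiple alignments. The first 90 coding bases of Rps27, its retrogene Rps27rt and its paralogue Rps27l show how close such copies can be. Capitals mark the 24 bases at which Rps27l differs from Rps27 (GENCODE M21, GRCm38; Rps27 lies on chromosome 3, the others on chromosome 9).
Rps27: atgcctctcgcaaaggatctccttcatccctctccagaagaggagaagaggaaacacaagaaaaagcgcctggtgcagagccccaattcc
Rps27rt: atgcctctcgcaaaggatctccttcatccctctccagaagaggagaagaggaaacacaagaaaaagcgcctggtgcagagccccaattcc
Rps27l: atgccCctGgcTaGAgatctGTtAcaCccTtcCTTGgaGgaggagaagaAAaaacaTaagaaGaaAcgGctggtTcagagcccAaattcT

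Rps27 and Rps27rt were identical over all 252 coding bases, and Rps27rt held 49.998% (labelled WT) and 49.964% (labelled KO) of the normalized count of Rps27. Their fold changes were -0.10 for each. Rps27l, identical to Rps27 at 76.2% of aligned coding bases, had a fold change of 0.20. The closer copy, and not the more distant one, thus had the fold change of Rps27, though not its level. With identical coding bases and multiple alignments counted, the reads of Rps27 and Rps27rt cannot be told apart.

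Copies of this kind were searched for every member as annotated transcripts with at least 95% identity over 100 bases or more of the coding sequence. For very short coding sequences, such as the 75 bases of Rpl41, a shorter stretch that covered most of the sequence was enough. At least 1 copy was found for 76 of the 77 proper genes, and 47 of these genes had 5 or more, up to 62 for Rpl21. Of 651 distinct copies, 19 had a row of their own in the tables. Gm15772 had the same values as Rpl26 in both libraries (14.43 and 15.08). Gm12191 held 57.0% and 56.7% of the count of Rpl30, Rpl34-ps1 held 33.3% and 33.2% of that of Rpl34, and Rpl37rt held 5.46% and 5.47% of that of Rpl37. In these pairs the copy and the member had nearly the same fold change, and their own reads cannot be told apart.

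Other copies did not follow their member. Rpl31-ps12 was lower (-0.18) while Rpl31 was higher (16.99 and 17.19, 0.20). Rpl14-ps1 was lower as well (-0.30), beside Rpl14 at 13.83 and 13.88 (0.043). Wdr89, which holds a copy of Rplp2, had a fold change of -0.62 beside -0.38 for Rplp2. Rplp2-ps1, one of the -ps rows and not among the copies found by this search, was at 8.53 and 7.07 (-1.46).

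**Figure D3:**
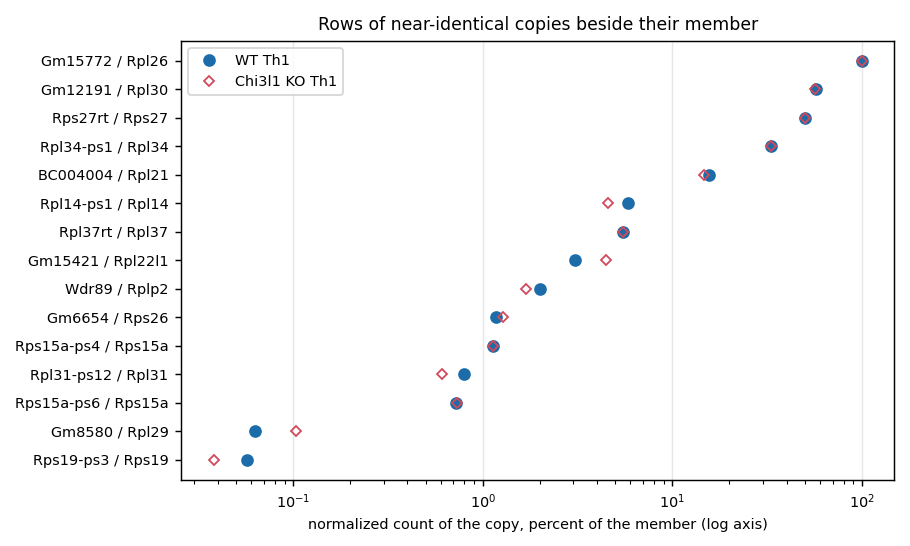
Normalized count of each listed near-identical copy as a percent of that of its member (x axis, log scale), in the library labelled WT (circles) and the library labelled KO (open diamonds). Gm15772 lies at 100% of Rpl26 and Rps27rt near 49.998% of Rps27 in both libraries, whereas Rpl14-ps1, Gm15421 and Rpl31-ps12 differ between the libraries.

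The number of copies was set beside the fold change. The 29 proper genes with 1 to 4 copies had a median log2 fold change of -0.026, and the 47 with 5 or more had a median of 0.17. Each group spanned a wide range (-0.62 to 0.86 and -0.47 to 0.65). Across the 77 genes the number of copies and the fold change were not related in a regular way (r = -0.15, rho = 0.045). The 4 members at least 1.5-fold higher had 2 (Rps3), 2 (Rpl23), 6 (Rpl26) and 7 (Rpl7) copies, and Rps10 had 3.

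The fold change also moved with base composition. Across 8496 other well read genes it fell with the GC content of the longest transcript (r = -0.49, rho = -0.53), and across the 77 proper genes r was -0.29 (rho = -0.31), or -0.39 with the principal transcript. Of the 20 proper genes with the lowest GC content (39.1% to 48.2%) 16 were higher and 4 lower, with a median of 0.31, and of the 19 with the highest (54.7% to 62.4%) 10 were higher and 9 lower, with a median of 0.008. With the trend of all well read genes subtracted, these medians were 0.21 and 0.28. Rps10 and Rpl29, both GC-rich at 60.3% and 60.5%, then stood at -0.19 and -0.04. The members at least 1.5-fold higher were then Rpl26 (0.87), Rps6 (0.81), Rps15 (13.98 and 14.32 as deposited, 0.80 with the trend subtracted) and Rps3 (0.79), with Rpl36 (0.58) and Rpl23 (0.57) just below that line. The subtracted value was read at the GC content of the longest transcript. For Rps6 this was 58.87%, and the value subtracted was -0.36. Rps6 stood at 0.45 as deposited, below the line, so its passing rests on this subtraction. The principal transcript of Rps6 has a lower GC content. Calls with the GC content of the principal transcript were not computed, so those above hold for the longest transcript only. The origin of the GC trend was not tested.

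**Figure D4:**
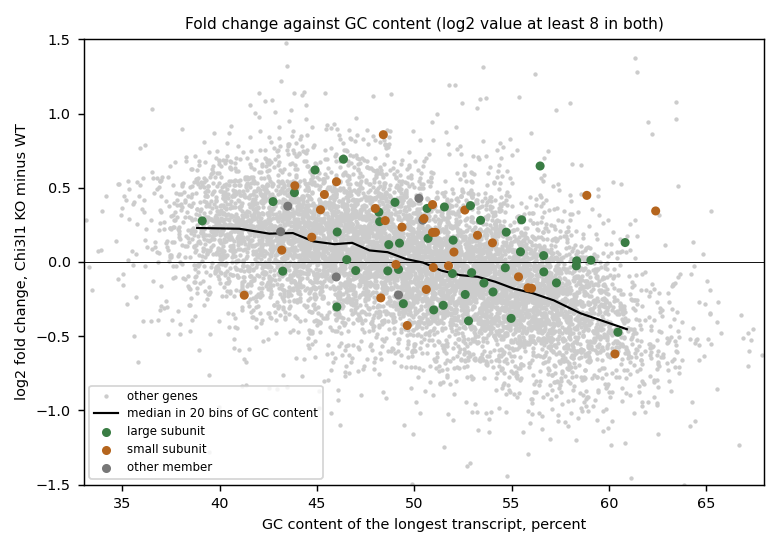
Log2 fold change, labelled KO minus labelled WT (y axis), against the GC content of the longest transcript in percent (x axis) for well read genes, with members coloured by subunit and the median of 20 bins as a line. The line falls from 0.23 in the bin of lowest GC content to -0.45 in that of highest, and most members lie above it.

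Other genes of the translation apparatus gave a setting for these values. The mitochondrial ribosomal proteins, of which 77 were listed, had 39 higher and 38 lower, a median of 0.004, 2 at least 1.5-fold higher and 1 at least 1.5-fold lower. Mrpl1 (9.13 and 10.19) was the one past 2-fold. Of 9 elongation factor genes 5 were higher, 3 lower and 1 without a read in either library (median 0.068), none different by 1.5-fold, and Eef1a1, which brings the aminoacyl-tRNA, was at 19.15 and 19.39. Of 48 initiation factor genes 32 were higher and 15 lower (median 0.11). At least 1.5-fold, 4 of these were higher (Eif1a, Eif2s1, Eif3j1 and Eif3j2, the last pair with identical values) and 2 lower, among them Eif3f (15.89 and 15.18). Over all genes 9.6% were at least 1.5-fold higher and 11.4% lower, shares that low genes fill. Of 45 well read initiation factors 4 were at least 1.5-fold higher and 1 lower. Of 71 well read mitochondrial ribosomal proteins 1 was higher and 0 lower by that line. Over all well read genes 3.95% were at least 1.5-fold higher and 6.29% lower. By any amount 31 of the 45 and 34 of the 71 were higher, against 48.8% of all well read genes. Eif5a and Eif5a2 stood in both the elongation and the initiation list.

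Factors that assemble ribosomes in the nucleolus had 52 of 79 genes higher and 27 lower, with a median of 0.17. The 4 at least 1.5-fold higher were Wdr12 (10.54 and 11.34, 0.80), Nip7 (0.76), Ebna1bp2 (0.66) and Ddx52 (0.59), and the one lower was Las1l (-0.67). Of 76 well read assembly factors 50 were higher, 4 of them at least 1.5-fold, and 0 were at least 1.5-fold lower. Subunits of RNA polymerase I, which transcribes the rRNA precursor, had 5 of 8 higher (median 0.16), from -1.49 for Znrd1 to 0.61 for Polr1e. All 8 were well read, with 1 at least 1.5-fold higher and 2 lower. Of all well read genes 48.8% were higher by any amount, 3.95% at least 1.5-fold higher and 6.29% at least 1.5-fold lower. Other well read genes with a longest transcript of at most 1000 bases, as short as many ribosomal protein mRNAs, had a median of -0.049 over 414 genes. As deposited, the median of 0.13 over the 83 well read members lay between those of well read initiation (0.109) and assembly factors (0.165). It lay above those of well read mitochondrial ribosomal proteins (-0.018) and other short genes. With the GC trend removed it was 0.177, above that of well read assembly factors (0.147). The other well read medians were then 0.07 (initiation), 0.027 (mitochondrial) and 0.072 (short genes). None of these differences was tested. Without the members with 5 or more copies, and with no filter on level, the members' median was -0.014 over 40 genes. With no filter on level, that of the mitochondrial ribosomal proteins was 0.004. The 88 members lie on 19 chromosomes, and the nearest to Chil1 on chromosome 1 is 61.5 Mb away.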

How the data were processed

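RNA of 1 WT and 1 Chi3l1 KO Th1 culture was sequenced. The authors selected polyadenylated RNA, sequenced paired ends, mapped reads to mm10 with TopHat, counted unique and multiple alignments for edgeR, and applied a global normalization, per the labels and the methods. The TopHat version and the annotation are not given in the sources used here. The deposited tables were taken to hold log2 values of the normalized count with 1 added. No source states this unit, which was inferred because 98.4% (WT) and 97.9% (KO) of low values fall within 0.05 of a whole multiple of 0.967 or 0.965, the worth of 1 read, from which reads were rebuilt.

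Members and lists were chosen with earlier results of these data known. No test between genotypes was run. Clopper-Pearson 95% intervals of fold changes from rebuilt reads hold counting error only. Reads of multiple alignments are not independent. Named genes were the 5 highest and 5 lowest well read members per kb, the 10 largest differences in each direction, and the role groups, paralogues and checks described; Rps13, Rpl13, Rps14, Rps15, Rpl36, the genes of copy pairs, the sequences shown, and single genes of related lists were added after their values were seen. A few genes under this rule are not reported here. Lengths, GC content, positions and copies came from GENCODE M21 (GRCm38, the same assembly as mm10), which held 95.7% of symbols. The GC and length trends were medians in 20 bins. Copies were found with blastn 2.17.0, promoters in RefSeq. Scripts were tested on simulated data. The versions were matplotlib 3.10.9, scipy 1.17.1, pandas 2.3.3 and numpy 2.4.6 under Python 3.11.15. Alternatives were a pseudocount of 0.1, other scalings, trends, filters, member sets and lengths.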

Additional observations from a re-analysis of the deposited data

How the results depend on the processing

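No paired analysis was possible because each genotype has 1 library, and leaving a library out leaves no comparison. Depth limits most the members below 8 (Rpl3l, Rpl10l, Rpl39l, Rps4l and Rps19bp1). The members' median log2 fold change (0.074) was 0.22 with totals without Rn45s, 0.19 with Actb, 0.21 with quantile normalization, 0.16 with the GC trend removed and 0.10 with the length trend removed. It was 0.098 for members that reached 1 in either library, 0.13 for those that reached 8 in both and 0.12 for ribosomal proteins proper. Among alternatives chosen after seeing the data, it was 0.098 without the 16 members overlapping a protein-coding gene, and it turned to -0.014 without members with 5 or more near-identical copies (40 genes left); the cause was not tested. It stayed above 0 under the others named here. Members at least 1.5-fold higher (4) were 9 without Rn45s and 9 by quantiles. Members at least 1.5-fold lower (2) were 1 without Rn45s, with Actb, by quantiles, with the GC trend removed, where the one left was Rpl3l, and 1 under both filters and among proper genes, where it was Rps10, and 4 with the -ps rows added. Members at least 2-fold lower (0) were 1 with a pseudocount of 0.1 (Rpl3l) and 1 with the -ps rows (Rplp2-ps1). The share of the library (6.04% labelled WT and 6.69% labelled KO) was 6.22% and 6.76% without Rn45s, 6.05% and 6.70% with -ps rows, 6.01% and 6.66% for proper genes, and 11.5% and 12.5% per kb. The quartile ratio per kb labelled WT (5.23) was 4.46 with mean and 5.62 with principal transcript length, the latter chosen after seeing the data.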
